A study of Mus musculus with 8 samples.

Results

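The genes described here are 8 mouse genes of fatty acid oxidation and fasting, *Cpt1a*, *Cpt2*, *Acadm*, *Acadl*, *Hadha*, *Ehhadh*, *Fgf21* and *Pdk4*, all known targets of the nuclear receptor PPARα. They were taken by symbol as a fixed list from the 23282 rows of the count files, and all 8 had a row. Liver RNA was sequenced with QuantSeq, a method that reads mostly the 3′ ends of polyadenylated transcripts, in C57BL/6 mice aged 4 weeks when purchased. The control group received saline, the endotoxemic group received 25 mg/kg lipopolysaccharide (LPS, the endotoxin of gram-negative bacteria) intraperitoneally, and the LGK974 group received 60 mg/kg LGK974, an inhibitor of Wnt secretion, together with 25 mg/kg LPS. Livers were taken 6 h after LPS, and LGK974 preceded LPS by 2 h in most of the experiments. The labels give the LGK974 libraries only the agent LGK974, without a dose and without LPS, and they call the LPS mice the control and the saline mice the normal group. No genetic alteration is named for any group, and nothing states whether a library came from 1 mouse or a pool, so the p-values below measure the spread between these libraries.

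During fasting, the liver takes up fatty acids from the blood, activates them to acyl-CoA and moves them into mitochondria as carnitine esters. There β-oxidation cuts the chain to acetyl-CoA, and the enzymes of ketogenesis turn acetyl-CoA into ketone bodies for use by other organs. PPARα, bound to DNA with the retinoid X receptor, switches on genes at each of these steps, and it also drives the hormone gene *Fgf21* and *Pdk4*, whose kinase shuts pyruvate out of the mitochondrial oxidation of glucose.

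The 8 deposited libraries held 6 distinct ones, because endotoxemic libraries 3 and 4 were identical to libraries 1 and 2 on every row and were counted once, so each group is described by 2 libraries. The libraries held between 9142116 and 15222439 counts, and 3 counts, taken as the smallest signal, corresponded to 0.196 to 0.327 CPM, the TMM-normalized count scaled to the size of the library. The sex-linked genes went against the label male in the control and endotoxemic libraries. *Xist*, transcribed from the inactive X chromosome, had 1171 to 3115 counts in those 4 libraries and 3 and 7 counts in the LGK974 libraries, whereas *Ddx3y* on the Y chromosome had 0 counts in those 4 libraries and 1755 and 1392 counts in the LGK974 libraries. The control and endotoxemic libraries are alike in these genes, but every difference between the LGK974 group and the other groups cannot be told apart from a difference in sex. In the files, 579 symbols stood on rows out of genomic order, so that the counts on such a row may belong to another gene. None of the 8 genes was among them, and both row neighbours of each lay on the same chromosome at 273 to 229322 bases.

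The question of the first comparison was how the transcripts of fatty acid oxidation stood 6 h after LPS. Of the 7 genes with enough counts to be tested, 6 were lower in the endotoxemic than in the control group at an adjusted p below 0.05 (edgeR's quasi-likelihood test, Benjamini-Hochberg adjustment over the 12701 rows tested) and 0 were higher, also at an unadjusted p under 0.05 and in DESeq2. Over all rows tested, 23% were lower and 20.4% higher by the same rule. An unadjusted p under 0.05, in either direction, was reached by 6513 of the 12701 rows. The 6 genes were *Cpt1a*, *Cpt2*, *Acadm*, *Acadl*, *Hadha* and *Ehhadh*, and their mean levels in the endotoxemic group were between 25.9% (*Acadm*) and 45.3% (*Hadha*) of the control level. *Pdk4* did not pass the test, and *Fgf21* had too few counts in every group. The control and endotoxemic libraries did not overlap for any of the 7: the 6 genes lay lower and *Pdk4* higher, where 39.2% and 37.9% of all rows were lower and higher without overlap. The median log2 fold change of the 7 genes was -1.41, against 0.01 over all rows tested. In bulk liver, fewer hepatocytes and less RNA per hepatocyte cannot be told apart, and the hepatocyte markers are therefore given with the pathway below.

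The second comparison asked what the same transcripts did when LGK974 was given with LPS. Between the LGK974 and endotoxemic groups, 2 of the 7 genes were higher, *Cpt1a* and *Cpt2*, and 0 were lower, whereas 2.8% of all rows were higher and 2.82% lower. At an unadjusted p under 0.05, 4 of the 7 were higher and 0 lower, and DESeq2 also called 0 of them lower. In either direction, 2911 of the 12701 rows reached that unadjusted p, which is also the background for the unadjusted counts of this comparison below. The other 5 genes had fold changes above 0 on the log2 scale without passing the test, a direction that turned for *Ehhadh* without LGK974 library 1 or endotoxemic library 2. Without overlap of the libraries, 5 of the 7 were higher and 0 lower, against 26.5% and 26% of all rows. The median over the 7 genes was 0.50, and that over all rows was 0.03. Both calls rested on the spread shared by the 3 groups: with only these 2 groups in the fit 0 genes were called, with an adjusted p of 0.0616 for *Cpt1a* and 0.0862 for *Cpt2*, and 0 were called when either control library or either endotoxemic library was left out. When the LGK974 group was compared with the control group, 4 genes were lower (*Cpt1a*, *Acadm*, *Acadl* and *Hadha*) and *Pdk4* was higher, where 17.7% of all rows were lower and 16.4% higher. In that comparison the libraries of 6 genes lay lower and of 1 higher without overlap, against 34.3% and 33.8% of all rows. The comparisons share their groups, so their values are given side by side.

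**Figure D1:**
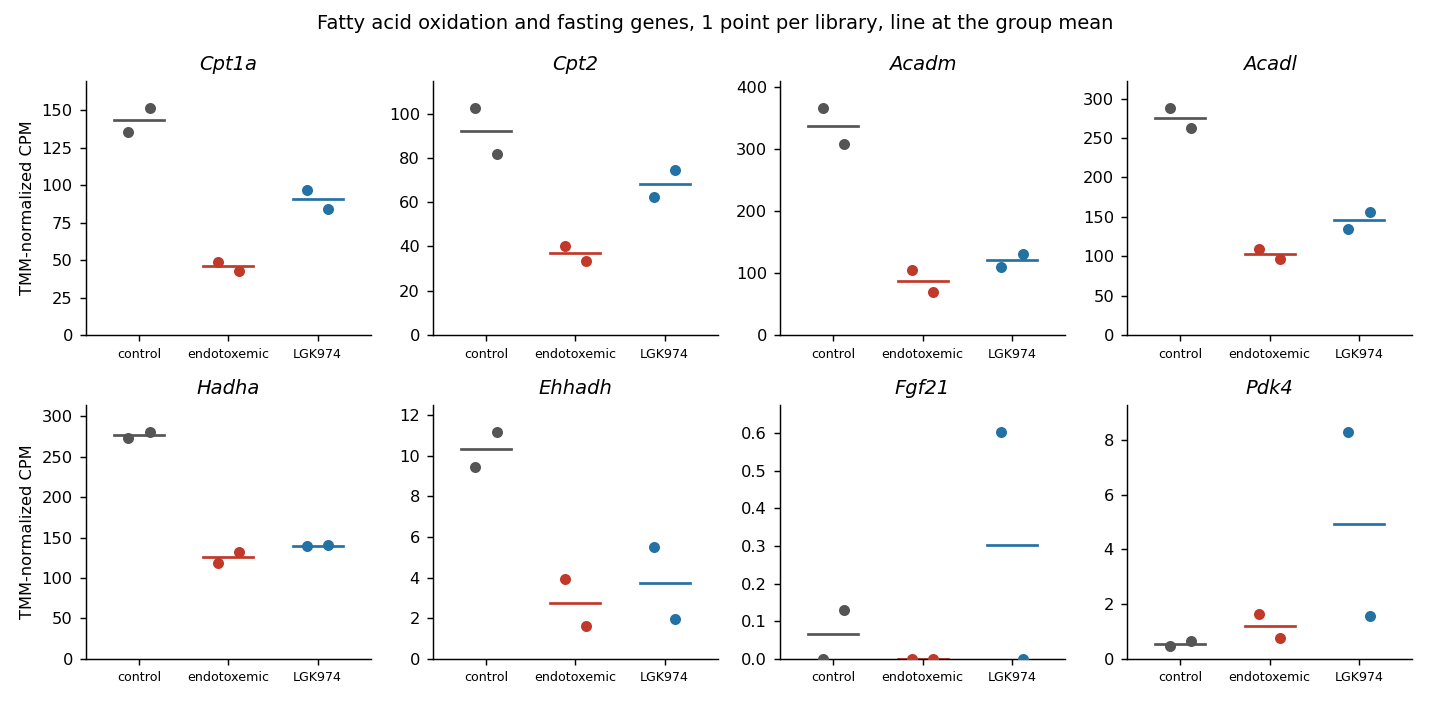
TMM-normalized CPM (vertical axis, linear and starting at 0) of the 8 genes in the control, endotoxemic and LGK974 groups; each point is 1 distinct library and the line is the mean of the 2 libraries. *Cpt1a*, *Cpt2*, *Acadm*, *Acadl* and *Hadha* were highest in both control libraries and lowest in both endotoxemic libraries, while *Pdk4* was highest in LGK974 library 1 at 8.30 CPM.

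The carnitine shuttle is represented by *Cpt1a* and *Cpt2*. *Cpt1a* (ENSMUSG00000024900.5, chr19:3322334-3385733, plus strand; GRCm38 in the GENCODE annotation, as for all genes below) encodes the liver form of carnitine palmitoyltransferase 1, which sits in the outer mitochondrial membrane and is the controlled entry step of long-chain fatty acids. Its counts were 1460 and 2316 with saline, 447 and 403 with LPS, and 1283 and 1248 with LGK974 and LPS, or 135 and 151, 48.7 and 42.9, and 96.8 and 84.4 CPM after TMM normalization. No group overlapped another, and the LGK974 libraries lay between the other groups. The level fell 3.13-fold after LPS (log2 fold change -1.65, SE 0.20, adjusted p = 0.000182), was 1.98-fold higher in the LGK974 than in the endotoxemic group (0.98, SE 0.19, adjusted p = 0.023) and stayed 1.58-fold below control in the LGK974 group (-0.66, SE 0.19, adjusted p = 0.0251). The call between the LGK974 and endotoxemic groups was lost without control library 1 or 2 (adjusted p = 0.0699 and 0.0697) and without endotoxemic library 1 or 2 (0.166 and 0.224). The call against control was lost without the same libraries (adjusted p of 0.052 to 0.163) and with only the 2 groups compared (0.0565).

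*Cpt2* (ENSMUSG00000028607.16, chr4:107903981-107923610, minus strand) encodes carnitine palmitoyltransferase 2, the inner-membrane enzyme that turns acylcarnitine back into acyl-CoA. Its counts were 1104 and 1254 in the control, 368 and 315 in the endotoxemic and 826 and 1101 in the LGK974 libraries. In CPM these were 102 and 81.9, then 40.1 and 33.6, then 62.3 and 74.5. The 3 groups did not overlap, with the order the same as for *Cpt1a*. *Cpt2* was 2.5-fold lower after LPS (log2 fold change -1.32, SE 0.22, adjusted p = 0.00117) and 1.86-fold higher in the LGK974 than in the endotoxemic group (0.89, SE 0.21, adjusted p = 0.0459). The second call was lost without either control library (adjusted p = 0.0964 and 0.0955) and without either endotoxemic library (0.208 and 0.31). Between the LGK974 and control groups the difference did not pass the test (-0.43, SE 0.21, adjusted p = 0.146).

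The sequences before the start of *Cpt1a*, *Acadm* and *Pdk4* are shown because those of *Cpt1a* and *Acadm* hold the AGGTCA motif of PPARα and related receptors, while that of *Pdk4*, which was called higher in the LGK974 than in the control group, does not. *Cpt2*, *Acadl*, *Hadha* and *Ehhadh*, the other 4 of the 6 genes that fell after LPS, had 0 matches too, so the motif did not separate the genes that fell from *Pdk4*. Each is the stretch of 250 bases before the RefSeq start on GRCm38.p6, written 5′ to 3′ on the strand of the gene, with AGGTCA or its reverse complement TGACCT in capitals. The windows are chr19:3323051-3323300 (plus strand), chr3:153944644-153944893 (minus strand) and chr6:5496279-5496528 (minus strand).
Cpt1a: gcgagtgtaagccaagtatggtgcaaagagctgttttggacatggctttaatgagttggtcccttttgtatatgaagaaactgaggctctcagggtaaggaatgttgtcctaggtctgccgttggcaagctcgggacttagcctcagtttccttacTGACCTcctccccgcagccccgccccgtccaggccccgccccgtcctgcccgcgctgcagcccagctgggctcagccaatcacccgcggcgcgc
Acadm: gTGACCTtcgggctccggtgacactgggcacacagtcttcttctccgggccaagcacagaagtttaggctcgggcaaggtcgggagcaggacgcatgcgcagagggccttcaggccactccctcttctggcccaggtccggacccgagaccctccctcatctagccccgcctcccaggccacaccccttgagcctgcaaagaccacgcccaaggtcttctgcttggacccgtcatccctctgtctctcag
Pdk4: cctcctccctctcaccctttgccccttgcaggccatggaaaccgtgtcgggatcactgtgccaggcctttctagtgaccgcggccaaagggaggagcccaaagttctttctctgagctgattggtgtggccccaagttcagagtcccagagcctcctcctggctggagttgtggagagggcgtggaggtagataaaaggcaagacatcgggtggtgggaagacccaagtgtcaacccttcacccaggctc
The motif began at position -94 in *Cpt1a* and at -249 in *Acadm*, both times as TGACCT. In windows that also take in the first 50 bases of the gene, both strands searched, 2 of the 8 genes (25%) held the motif, and 16.3% of the 32851 mouse promoters in the RefSeq table did. The direct repeat with 1 base between its copies, AGGTCANAGGTCA, the response element of PPARα with the retinoid X receptor, was in 0 of the 8 and in 0.0396% of all promoters. The closest stretch in any of the 8 differed from it at 3 bases, in *Acadm*. These matches are descriptions of letters, and elements outside the window were not searched.

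Mitochondrial β-oxidation is represented by *Acadm*, *Acadl* and *Hadha*. *Acadm* (ENSMUSG00000062908.12, chr3:153922357-153944632, minus strand) encodes the medium-chain acyl-CoA dehydrogenase, which takes the first oxidation step on medium-length chains. It had 3937 and 4722 counts in the control, 956 and 659 in the endotoxemic and 1464 and 1938 in the LGK974 libraries, or 365 and 308, 104 and 70.2, and 110 and 131 CPM. The control libraries stood well above the rest, and LGK974 library 1 lay just above endotoxemic library 1. *Acadm* fell 3.86-fold after LPS (log2 fold change -1.95, SE 0.24, adjusted p = 0.000232) and was 2.79-fold below control in the LGK974 group (-1.48, SE 0.24, adjusted p = 0.00144). The difference between the LGK974 and endotoxemic groups did not pass the test (0.47, SE 0.23, adjusted p = 0.27).

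*Acadl* (ENSMUSG00000026003.5, chr1:66830839-66863277, minus strand) encodes the long-chain acyl-CoA dehydrogenase. Its levels were 288 and 262 CPM in the control, 109 and 96.8 in the endotoxemic and 135 and 157 in the LGK974 libraries, from 3101 and 4016, 1004 and 909, and 1790 and 2315 counts. The groups did not overlap and kept the order control, LGK974, endotoxemic. *Acadl* fell 2.67-fold after LPS (log2 fold change -1.41, SE 0.19, adjusted p = 0.0004) and was 1.89-fold below control with LGK974 (-0.92, SE 0.19, adjusted p = 0.00549), whereas the LGK974 and endotoxemic groups gave 0.50 (SE 0.19, adjusted p = 0.157). Without control library 1 the call against control was lost (adjusted p = 0.061), and without LGK974 library 1 the difference from the endotoxemic group passed the test (0.60, adjusted p = 0.036).

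*Hadha* (ENSMUSG00000025745.12, chr5:30118304-30155162, minus strand) encodes the α subunit of the mitochondrial trifunctional protein, and its partner *Hadhb* encodes the β subunit. The genes lie head to head, 85 bases apart in GENCODE. *Hadha* had 2944 and 4299 counts in the control, 1086 and 1244 in the endotoxemic and 1850 and 2084 in the LGK974 libraries, or 273 and 281, 118 and 132, and 139.6 and 140.9 CPM. Both LPS-treated groups lay near one another and far below control: *Hadha* fell 2.21-fold after LPS (log2 fold change -1.14, SE 0.18, adjusted p = 0.000956) and was 1.97-fold below control with LGK974 (-0.98, SE 0.18, adjusted p = 0.00293), and the difference between the LGK974 and endotoxemic groups was 0.16 (SE 0.18, adjusted p = 0.634). *Hadhb* was 2.03-fold lower after LPS (-1.02, SE 0.21, adjusted p = 0.00415) and 1.8-fold below control with LGK974 (-0.85, SE 0.21, adjusted p = 0.0125), calls that were lost without endotoxemic library 1 (0.0581) and without control library 2 (0.11). The last kilobase of *Hadha* overlaps *Garem2* on the other strand, and the strand used in counting is not given in the sources used here. The row of that gene held 0 or 1 count in each of the 6 libraries.

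*Ehhadh* (ENSMUSG00000022853.7, chr16:21761287-21787807, minus strand) encodes the bifunctional enzyme of peroxisomal β-oxidation, which shortens long chains and makes dicarboxylic acids. It was thinly covered, with 102 and 171 counts in the control, 36 and 15 in the endotoxemic and 73 and 29 in the LGK974 libraries, or 9.46 and 11.2, 3.93 and 1.60, and 5.51 and 1.96 CPM. Both control libraries lay above all others, and the endotoxemic and LGK974 libraries overlapped. *Ehhadh* was 3.74-fold lower after LPS (log2 fold change -1.90, SE 0.56, adjusted p = 0.0226, and -2.64 without endotoxemic library 1), a call that was lost without control library 1 (adjusted p = 0.0666), control library 2 (0.0995) or endotoxemic library 2 (0.156). The values were 0.43 (SE 0.57, adjusted p = 0.698, but -0.49 without LGK974 library 1 and -0.08 without endotoxemic library 2) between the LGK974 and endotoxemic groups and -1.47 (SE 0.53, adjusted p = 0.0607) between the LGK974 and control groups. The last difference was -2.39 and passed the test without LGK974 library 1 (adjusted p = 0.00439), and it also passed with DESeq2 (0.039) and without a filter on low counts (0.00289).

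*Pdk4* and *Fgf21* are the fasting signals of the list. *Pdk4* (ENSMUSG00000019577.6, chr6:5483351-5496309, minus strand) encodes pyruvate dehydrogenase kinase 4, which phosphorylates and inactivates the pyruvate dehydrogenase complex. It had 5 and 10 counts in the control, 15 and 7 in the endotoxemic and 110 and 23 in the LGK974 libraries, or 0.464 and 0.653, 1.64 and 0.746, and 8.30 and 1.56 CPM. The control libraries were the lowest, LGK974 library 1 stood far above all others, and LGK974 library 2 lay within the range of the endotoxemic libraries. *Pdk4* was 8.53-fold higher in the LGK974 than in the control group (log2 fold change 3.09, SE 0.86, adjusted p = 0.0222). This call rested on single libraries: without LGK974 library 1 the log2 fold change was 1.44 (adjusted p = 0.228), and without control library 1 or 2 the adjusted p was 0.126 or 0.1. The values were 1.06 (SE 0.93, adjusted p = 0.386, and 0.44 without endotoxemic library 1) after LPS and 2.04 (SE 0.82, adjusted p = 0.18) between the LGK974 and endotoxemic groups. The second difference ranged from 0.39 without LGK974 library 1 to 2.79 without LGK974 library 2 (adjusted p = 0.014), and it also passed the test without a filter on low counts (0.0187) and with identical libraries as separate samples (0.0448).

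*Fgf21* (ENSMUSG00000030827.5, chr7:45613886-45615490, minus strand) encodes a hormone that the fasted liver releases under PPARα. It had 0 and 2 counts in the control, 0 and 0 in the endotoxemic and 8 and 0 in the LGK974 libraries, and it was not tested. The 8 counts of LGK974 library 1 had an exact Poisson interval (95%, counting error only) of 3.45 to 15.8 counts, and that of a count of 0 reached up to 3.69 counts. All 8 counts of the LGK974 group came from 1 library, and the groups were not compared.

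**Figure D2:**
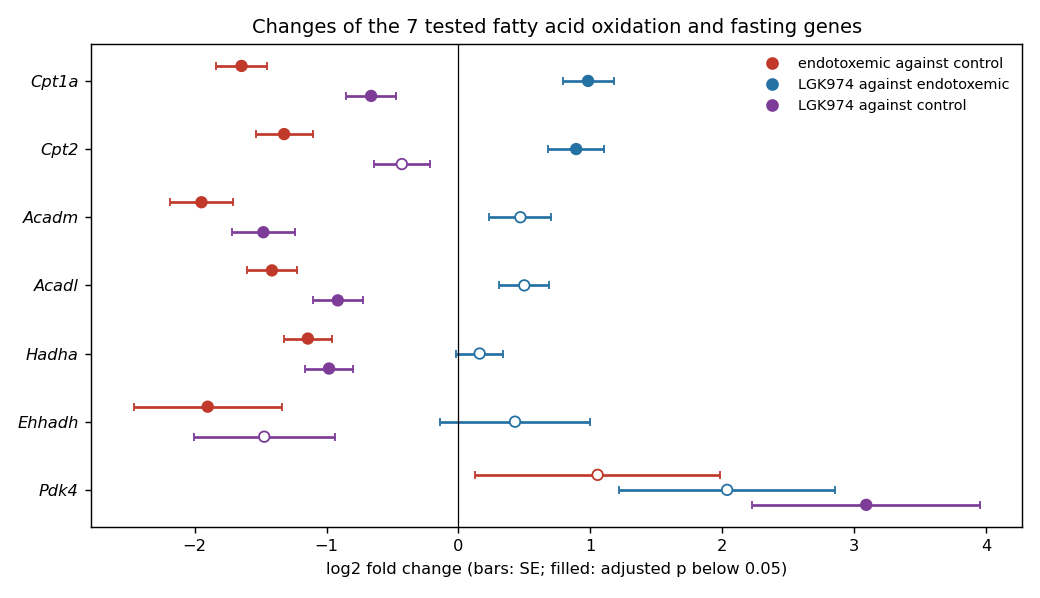
Log2 fold changes (horizontal axis) of the 7 tested genes in the 3 comparisons, with bars of 1 SE; filled points had an adjusted p below 0.05. Endotoxemic against control lay between -1.95 and -1.14 for the 6 genes that fell, and LGK974 against endotoxemic lay above 0 for all 7 (*Ehhadh* turned without LGK974 library 1 or endotoxemic library 2), with filled points only for *Cpt1a* and *Cpt2*.

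The levels of the 6 genes that fell varied together over the 6 libraries, with Pearson correlations of log2 CPM between 0.68 (*Cpt2* with *Ehhadh*) and 0.988 (*Acadm* with *Acadl*). *Pdk4* had correlations of -0.57 to -0.12 with them. These are descriptions over 6 libraries that share their group differences. Relative to control, the mean level was 32.0% in the endotoxemic and 63.2% in the LGK974 group for *Cpt1a*, and 40.0% and 74.2% for *Cpt2*. The corresponding pairs were 25.9% and 35.9% for *Acadm*, 37.5% and 53.0% for *Acadl*, 45.3% and 50.6% for *Hadha*, and 26.8% and 36.2% for *Ehhadh*. Among these 6 genes, *Cpt1a* and *Cpt2* had the highest shares of the control level in the LGK974 group, but whether the genes differ in this from one another was not tested.

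The other genes of the pathway were taken from a list of 79 genes arranged by role, of which 77 were tested. After LPS, 62 of them were lower and 6 higher, with a median log2 fold change of -1.28. With LGK974, 15 were higher and 1 lower than in the endotoxemic group (median 0.45), and 48 were lower and 7 higher than in the control group (median -0.88). Without endotoxemic library 1 or 2, or either control library, 3, 1, 7 and 7 of the genes were higher with LGK974 than with LPS alone, and without LGK974 library 1 or 2 there were 29 and 23. The count over all 12701 rows moved with them, from 356 higher to 23, 17, 122 and 116 and to 1126 and 594 in the same order. The shares of all rows called are those given above for the 8 genes, and they are the background for each role and marker list below too. The median over all rows was 0.02 for the LGK974 against the control group. The row of 1 listed symbol, *Vnn1*, was out of genomic order. On rows in order, 5 genes were higher and 62 lower after LPS.

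**Figure D3:**
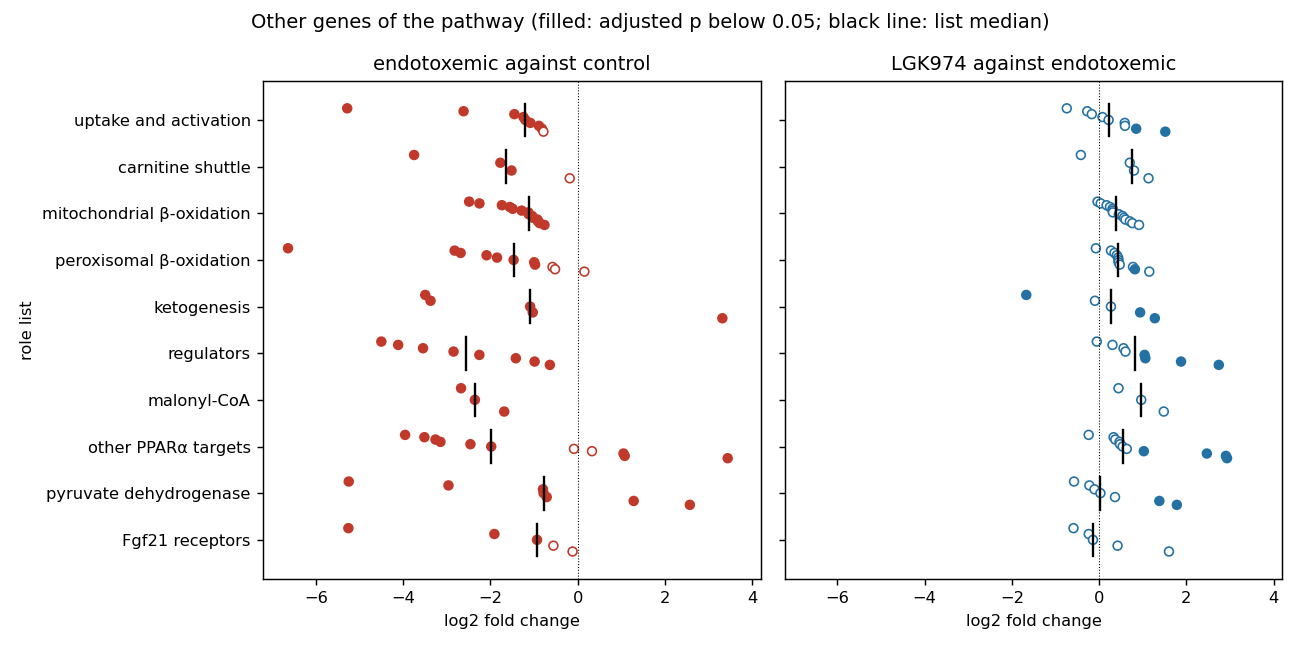
Log2 fold changes (horizontal axes) of the tested genes of each role list, for endotoxemic against control and LGK974 against endotoxemic; each point is 1 gene, filled at an adjusted p below 0.05, and the black line is the median of the list. After LPS, filled points lay below 0 in every list, and filled points above 0 occurred in ketogenesis, other PPARα targets and pyruvate dehydrogenase.

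The regulators fell as a group after LPS, 8 of 8. *Ppara* itself had 293 and 360 CPM in the control, 12.9 and 16.0 in the endotoxemic and 61.3 and 132 in the LGK974 libraries. The 3 groups were separate, with the endotoxemic libraries lowest. *Ppara* fell 22.6-fold after LPS (log2 fold change -4.50, SE 0.38, adjusted p = 2.63e-05), was 6.69-fold higher in the LGK974 than in the endotoxemic group (2.74, SE 0.35, adjusted p = 0.00514) and was 3.38-fold below control with LGK974 (-1.76, SE 0.33, adjusted p = 0.00349). Without endotoxemic library 1 or 2, the adjusted p between the LGK974 and endotoxemic groups was 0.0872 or 0.0841, and without LGK974 library 2 the log2 fold change was 2.09 against the endotoxemic and -2.41 against the control group. *Ppargc1b*, a coactivator of mitochondrial genes, fell 17.3-fold after LPS and had a log2 fold change of 0.31 (adjusted p = 0.626) between the LGK974 and endotoxemic groups. Beside *Ppara*, the regulators that were higher with LGK974 than with LPS alone were *Lpin2* (1.88, adjusted p = 0.00937), *Lpin1* (1.06, adjusted p = 0.0246) and *Creb3l3* (1.04, adjusted p = 0.0173), named here after their values were seen. Lipin 1 acts as a coactivator of PPARα beside its role in lipid synthesis, and *Creb3l3* encodes a liver transcription factor of fasting.

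In uptake and activation, 8 of 9 tested genes were lower after LPS, and 2 were higher and 0 lower with LGK974 than with LPS alone. *Acsl1*, the main liver enzyme that activates long-chain fatty acids to acyl-CoA, had 664 and 735 CPM in the control, 16.0 and 19.9 in the endotoxemic and 43.5 and 59.3 in the LGK974 libraries. It fell 38.9-fold after LPS (log2 fold change -5.28, SE 0.26, adjusted p = 1.68e-06) and was 2.86-fold higher with LGK974 than with LPS alone (1.52, SE 0.23, adjusted p = 0.00931), the latter lost without endotoxemic library 1 or 2 (0.134 and 0.0997). In the rest of the carnitine shuttle, 3 of 4 tested genes were lower after LPS and 0 passed edgeR's test between the LGK974 and endotoxemic groups (3 higher at an unadjusted p under 0.05, 2 by DESeq2). The lower genes included *Slc25a20*, the carnitine-acylcarnitine carrier (2.86-fold lower, adjusted p = 0.00127), and *Crot*, the peroxisomal carnitine octanoyltransferase (13.4-fold lower, adjusted p = 4.12e-06).

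Beside *Acadm*, *Acadl* and *Hadha*, all 14 listed genes of mitochondrial β-oxidation were lower after LPS, with log2 fold changes from -2.49 for *Acad11* to -0.76 for *Eci2*. *Acadvl*, the very-long-chain acyl-CoA dehydrogenase, was 1.88-fold lower (adjusted p = 0.00673, but 0.0785 without control library 1 and 0.0752 without endotoxemic library 2), and *Hadh*, the short-chain hydroxyacyl-CoA dehydrogenase, was 4.76-fold lower (adjusted p = 5.83e-05). Between the LGK974 and endotoxemic groups 0 of the 14 passed edgeR's test, 7 were higher at an unadjusted p under 0.05 and 1 by DESeq2. Against control, 11 of the 14 were lower in the LGK974 group. *Hadh* gave -0.04 (adjusted p = 0.941) between the LGK974 and endotoxemic groups, a direction that turned with upper-quartile normalization and without endotoxemic library 1 or LGK974 library 2.

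In peroxisomal β-oxidation, 8 of 11 genes were lower after LPS. *Abcd2*, a peroxisomal importer of very-long-chain acyl-CoA, had 35.4 and 41.5 CPM with saline and 0.109 and 0.639 CPM with LPS, where endotoxemic library 1 lay below the level of 3 counts. *Abcd3*, an importer of the same family, fell 6.42-fold (adjusted p = 1.53e-05) and was 1.76-fold higher with LGK974 than with LPS alone (adjusted p = 0.0443, but 0.113 to 0.269 without a control or an endotoxemic library).

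Ketogenesis had 4 of 5 genes lower after LPS and 1 higher. With LGK974, 2 of the 5 were higher and 1 lower than with LPS alone. *Bdh1*, which interconverts the ketone bodies, had 359 and 315 CPM in the control, 36.0 and 29.1 in the endotoxemic and 33.8 and 44.6 in the LGK974 libraries, and the endotoxemic and LGK974 libraries overlapped. It was 10.4-fold lower after LPS (log2 fold change -3.37, SE 0.24, adjusted p = 9.3e-06), was 8.59-fold below control with LGK974 (-3.10, SE 0.23, adjusted p = 1.64e-05) and gave 0.27 (adjusted p = 0.502) between the LGK974 and endotoxemic groups.

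The gene that moved the other way in this list was *Slc16a1*, a plasma membrane transporter of lactate and ketone bodies. It had 39.1 and 37.7 CPM in the control, 446 and 318 in the endotoxemic and 157 and 83.8 in the LGK974 libraries. It was 9.95-fold higher after LPS (log2 fold change 3.31, SE 0.32, adjusted p = 5.74e-05) and 3.18-fold lower with LGK974 than with LPS alone (-1.67, SE 0.30, adjusted p = 0.0183), the 1 gene of the 77 that was lower in that comparison. The second call was lost without either control library (0.0539) and without endotoxemic library 1 or 2 (0.155 and 0.0958).

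**Figure D4:**
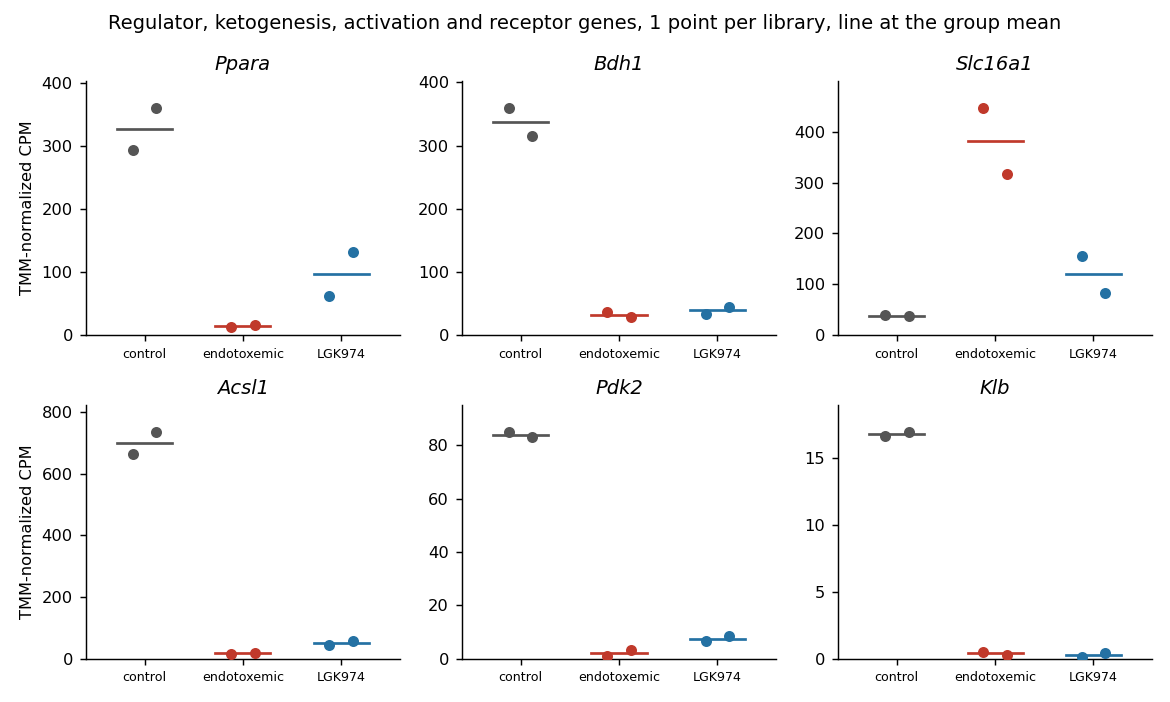
TMM-normalized CPM (vertical axes, linear and starting at 0) of 6 pathway genes in the control, endotoxemic and LGK974 groups; each point is 1 distinct library and the line is the mean of the 2 libraries. *Ppara*, *Bdh1*, *Acsl1*, *Pdk2* and *Klb* were highest in the control libraries, and *Slc16a1* was highest in the endotoxemic libraries at 446 and 318 CPM.

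The genes that set malonyl-CoA, the inhibitor of the entry step, fell too after LPS, 3 of 3. *Acaca* and *Acacb*, the carboxylases that make malonyl-CoA, were 5.12-fold (adjusted p = 8.59e-05) and 6.37-fold lower (adjusted p = 0.00144), and *Mlycd*, which removes it, had a log2 fold change of -1.68.

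Among 11 other PPARα targets, 6 were lower and 3 higher after LPS, and 4 were higher and 0 lower with LGK974 than with LPS alone. *Acot1*, a cytosolic acyl-CoA thioesterase, fell 15.5-fold (adjusted p = 3.98e-05). *Acot2*, its mitochondrial relative, fell 9.57-fold (adjusted p = 6.44e-05) and was 7.62-fold higher with LGK974 than with LPS alone (log2 fold change 2.93, SE 0.32, adjusted p = 0.00242), which left it at -0.33 (adjusted p = 0.385) against control. Without endotoxemic library 2 the adjusted p of that rise was 0.0668. *Acot1* and *Acot2* are close in sequence, so reads could be split between them. The higher genes were *Plin2* and *Cidec*, both lipid droplet proteins, and *Vnn1*, whose row was out of genomic order, so that its counts may belong to another gene. *Cidec* was 10.8-fold higher after LPS (3.44, SE 0.74, adjusted p = 0.00508) and 15.1-fold higher than control in the LGK974 group (3.91, adjusted p = 0.00341). The control libraries had 26 and 6 counts of *Cidec*, and the size rested on them: the log2 fold change after LPS was 5.15 without control library 1 and 2.56 without control library 2. Against control, that of the LGK974 group was 5.63 and 3.04 without the same libraries and 2.89 and 4.54 without LGK974 library 1 and 2, and every one of these values passed the test.

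*Pdk4* can be set beside the other genes that control pyruvate dehydrogenase, of which 5 of 7 were lower and 2 higher after LPS. The 2 higher genes are 28.6% of the list, where 20.4% of all rows were higher. With LGK974, 2 of the 7 were higher and 0 lower than with LPS alone. *Pdk2* had 85.0 and 83.0 CPM in the control, 1.09 and 3.30 in the endotoxemic and 6.71 and 8.45 in the LGK974 libraries. It fell 37.9-fold after LPS (log2 fold change -5.25, SE 0.40, adjusted p = 1.58e-05) and was 3.43-fold higher with LGK974 than with LPS alone (1.78, adjusted p = 0.0365, but 0.0545 to 0.197 without a control or an endotoxemic library). Without endotoxemic library 1 or 2 the log2 fold changes of *Pdk2* were -4.62 and -6.25 after LPS and 1.18 and 2.79 with LGK974. *Pdk3* was 5.94-fold higher after LPS (2.57, SE 0.60, adjusted p = 0.00765, but 0.0519 without control library 2 and 0.0737 without endotoxemic library 2), at 0.649 and 0.588 CPM in the control and 2.62 and 4.79 CPM in the endotoxemic libraries.

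For *Fgf21* signaling, 3 of 5 receptor genes were lower after LPS, where 23% of all rows were. *Klb*, the co-receptor that Fgf21 needs, had 16.7 and 17.0 CPM in the control, 0.545 and 0.32 in the endotoxemic and 0.151 and 0.406 in the LGK974 libraries. It fell 38.1-fold after LPS (log2 fold change -5.25, SE 0.49, adjusted p = 4.6e-05) and 57.3-fold against control with LGK974 (-5.84, SE 0.49, adjusted p = 3.45e-05). Both values rest on fewer than 10 counts in each LPS-treated library, and the second was -6.70 without LGK974 library 2. *Fgfr1* was 2.79-fold higher in the LGK974 than in the control group (1.48, SE 0.48, adjusted p = 0.0407), a call that was lost without any 1 of the 6 libraries (adjusted p of 0.0507 to 0.208), with a value of 2.09 without control library 2.

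Markers of liver cell types moved as well. Of the 6 hepatocyte markers with a row, 4 were lower and 1 higher after LPS: *Alb* had a log2 fold change of -1.17 and *Ttr* of -1.48, *Fgb* of 2.08, and *Apob* gave -0.42 without passing the test. Their summed level ranged from 86093 to 124111 CPM in the control, from 70374 to 99283 in the endotoxemic and from 77748 to 78350 CPM in the LGK974 libraries. Without *Fgb*, an acute-phase gene, the sums were 112449 and 77589 in the control, 50906 and 33211 in the endotoxemic and 39619 and 36923 CPM in the LGK974 libraries, so that the control libraries lay above the rest. This leaves out only the marker that rose. Most of the remaining sum was *Alb*, at 84798 and 52765 CPM in the control and 38820 and 22432 CPM in the endotoxemic libraries. Neither sum shows the number of hepatocytes. Between the LGK974 and endotoxemic groups 0 of the 6 passed edgeR's test (1 higher at an unadjusted p under 0.05 and 1 by DESeq2). Of the 6 Kupffer cell markers 3 were lower and 1 higher after LPS, with the row of 1 of the lower ones, *Cd5l*, out of genomic order: *Clec4f* had a log2 fold change of -0.89 and was lower again with LGK974 than with LPS alone (-1.30, adjusted p = 0.0187), and *Marco* gave 3.70. Of the 5 endothelial markers 2 were lower and 1 higher after LPS, *Kdr* at -5.36, *Clec4g* at -3.49 and *Lyve1* at 3.03. Between the LGK974 and endotoxemic groups 1 of the 5, *Clec4g*, was lower (-2.19, adjusted p = 0.0163) and 0 were higher. Without overlap of the libraries 2 lay lower and 2 higher in that comparison, the latter *Kdr* (2.57, adjusted p = 0.0758) and *Lyve1* (0.37, adjusted p = 0.358). Of the 5 stellate cell markers 3 were lower and 1 higher after LPS, from *Lrat* at -2.93 to *Dcn* at 0.60, and 0 passed the test between the LGK974 and endotoxemic groups (0 also at an unadjusted p under 0.05 and by DESeq2). Of the 5 cholangiocyte markers 1 was lower and 1 higher after LPS, or 20% each way, near the 23% and 20.4% of all rows. The 2 tested lymphocyte markers did not pass the test. The summed levels were 95.4 to 101 CPM in the control, 117 to 138 in the endotoxemic and 85.4 to 119 in the LGK974 libraries for the Kupffer markers in order, and 218 to 229, 396 to 399 and 428 to 548 CPM for the endothelial markers. Those of the stellate markers were 417 to 431, 534 to 580 and 446 to 536 CPM. Each of these 3 sums holds 1 marker that was called higher after LPS, while more of its markers were called lower. In mean CPM of the control and endotoxemic groups, *Marco* had 6.57 and 85.5, *Lyve1* 42.5 and 348, and *Dcn* 348 and 526. The sums therefore do not show whether these cells became more or fewer. The 3 neutrophil and monocyte markers on rows in order summed to 2.04 and 2.87 CPM in the control, 26.2 and 40.4 in the endotoxemic and 18.6 and 18.9 CPM in the LGK974 libraries, with *Csf3r* at 0 in at least 1 library. The 5 markers of adipocytes and muscle were each at 0 in at least 1 library and summed to at most 2.78 CPM. The part of cell composition in the results was not tested.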

How the data were processed

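Liver RNA of 2 control, 4 deposited endotoxemic and 2 LGK974 libraries was sequenced with a QuantSeq kit from 500 ng of RNA. The authors deposited whole-number read counts per gene symbol without normalization; the submitters' processing notes name Bowtie2, edgeR and mm10, and the counting program and its strand setting are not given in the sources used here. The growth notes give 1 age and sex for all mice, and LGK974 and LPS doses of the LGK974 group and the time of collection come from the study's methods.

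Identical libraries were counted once. The counts were tested with edgeR 4.0.16 under R 4.3.3. Of 23282 rows, 12701 passed filterByExpr by group. After TMM normalization, the 6 distinct libraries entered 1 quasi-likelihood fit by group. P-values were adjusted by Benjamini-Hochberg over all rows tested, with a threshold of 0.05. CPM are TMM-normalized, correlations used log2 CPM with a prior count of 2, and percentages of control are ratios of mean CPM. The common biological coefficient of variation was 0.239. Total counts per library set the precision, and intervals and floors cover counting error only. Tested on simulated data with 200 of 12701 genes changed by 2 on the log2 scale for endotoxemic against control, the fit recovered 89% with 8 false calls, and it made 0 calls when none was changed. The simulation gave all genes the same spread, whereas in the data 2595 rows were called higher and 2918 lower after LPS. The 6 genes that fell changed by less than 2, so recovery at their size was not simulated.

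Row symbols were compared with RefSeq positions on GRCm38. A symbol was out of order when it fell outside the longest ordered set by over 2 Mb or on another chromosome, and 445 of the 579 such rows could be matched to a gene at their place. Replicate numbers were not treated as pairs in the main fit. Promoters and motif searches used the RefSeq promoter table. The alternatives were other filters, DESeq2 1.42.0, upper-quartile normalization, all 8 libraries, a replicate block, fits with only the groups compared, leaving out each library, handling of out-of-order rows, and *Rn45s* left out.

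The genes, the role and marker lists, the tests and the rule for named genes were chosen with earlier results of these data known. The rule names the 8 genes, fixed pathway genes, and in each role list and comparison the largest rise and fall among called genes with groups that do not overlap on rows in order. Genes such as *Lpin1*, *Eci2*, *Mlycd* and *Plin2* fall outside it and were named after their values were seen. Some genes that the rule names are not reported here.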

Additional observations from a re-analysis of the deposited data

How the results depend on the processing

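Over 1377 results of named genes under the alternatives, 1255 kept their direction and their side of the threshold, 29 became significant, 83 lost significance and 10 reversed. The fall of *Cpt1a*, *Cpt2*, *Acadm*, *Acadl* and *Hadha* after LPS kept its call under every alternative run, and with single libraries left out 5 to 6 of the genes stayed lower after LPS. With 2 libraries a group, leaving out 1 leaves a lone library that is assumed to vary like the others. *Fgf21* had too few counts to be tested at this depth.

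Between the LGK974 and endotoxemic groups, 4 of the 8 genes were higher with identical libraries as separate samples, 1 with the replicate block (*Cpt2* then had an adjusted p of 0.0525), 0 with only these groups in the fit, and 0 to 3 without single libraries. In the pathway list, 23 were higher without a filter, 34 with identical libraries separate, 7 with only these groups and 1 to 29 without single libraries. Lower in the same comparison were 2 without a filter, 2 with DESeq2, 3 with identical libraries separate and 0 to 3 without single libraries. Against control in the LGK974 group, 0 of the 8 genes were higher with at least 10 counts required in every library, where *Pdk4* was not tested, and 0 to 1 without single libraries. In that comparison 2 to 5 of the genes were lower and 4 to 7 of the pathway list higher without single libraries. Beside the fewer samples, the cause of these shifts was not tested. Over all rows, LGK974 against endotoxemic gave 356 higher and 358 lower calls, and 600 and 627 with DESeq2, 881 and 824 without a filter, 1694 and 1546 with identical libraries separate, 129 and 185 with only these groups, and 17 to 1126 and 22 to 1041 without single libraries.

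Same-numbered samples had correlations of their deviations from the group means of 0.14, -0.007 and 0.061, so no strong pairing by number was seen over all rows. With 2 libraries a group, these values cannot exclude a pairing that touches some genes. The replicate block moved the pathway list to 16 higher between the LGK974 and endotoxemic groups and the genes lower against control from 4 to 5, through *Ehhadh* (adjusted p = 0.0321).

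The log2 fold changes that reversed, each uncalled in both settings, were as follows. Without single libraries, *Fgfr1* ranged from -0.51 to 0.49 after LPS (0.15 without endotoxemic library 1). Between the LGK974 and endotoxemic groups, *Ehhadh* ranged from -0.49 without LGK974 library 1 to 1.19 (-0.08 without endotoxemic library 2) and *Cidec* from -0.56 to 1.08, lowest without LGK974 library 1. *Pdk3* ranged from -0.61 to 0.28 (0.08 without LGK974 library 2), and *Hadh* from -0.30 to 0.18 (0.03 without endotoxemic library 1, and 0.0032 with upper-quartile normalization). The cause was not tested.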

Other observations

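The genes whose levels were most like those of *Acadm* over the 6 libraries, by Pearson correlation of log2 CPM, were *Phka2* (0.997), *Ndufb8* (0.996) and *Jmy* (0.996). Among those most like *Pdk4* were *Wbscr16* (0.983) and *Ankrd28* (0.980). The libraries share their group differences, and many rows follow the same order of groups. *Fgf21* was not tested, and no likeness was computed for it.

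Within the LGK974 group, the libraries stood apart for some PPARα targets. *Cyp4a14*, a fatty acid ω-hydroxylase, had 953 counts in library 1 and 12700 in library 2, and *Fabp1*, the liver fatty acid-binding protein, had 20341 and 9373. In the same libraries *Pdk4* had 110 and 23 counts and *Ehhadh* 73 and 29, whereas *Hadha* had 1850 and 2084. *Cyp4a14* and *Fabp1* were named after their values were seen.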
